A study of Mus musculus with 9 samples.

Results

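Fibrogenic growth factors are the secreted proteins that make fibroblasts divide and lay down matrix. The group was fixed by name as 10 genes: the transforming growth factors Tgfb1, Tgfb2 and Tgfb3, the TGF-beta-induced matrix protein Tgfbi, the platelet-derived growth factor chains Pdgfa and Pdgfb, the insulin-like growth factor Igf1, the EGF receptor ligands Areg and Hbegf, and the matricellular protein Ccn2, also called CTGF. Of these, 9 had a probe set with a single gene symbol, among 18194 such genes on the array, and Areg was not analysed here. The 9 genes had 22 probe sets, and all 22 passed the filter on dim signals, among 23824 tested probe sets and 11984 tested genes in the whole series.

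RNA of whole lung was measured on 9 Affymetrix arrays, 1 per mouse, from female C57BL/6 mice aged 14 weeks. A replication-deficient adenovirus had been given into the trachea 14 days earlier, so every group, AdV-NULL included, had received a virus. AdV-IL4 encoded mouse IL-4 (3 mice), AdV-IL4d2 encoded IL-4d2, an alternatively spliced form of the mouse cytokine (3 mice), and AdV-NULL encoded no cytokine (3 mice). The cytokine gene was thus delivered by a virus, and RNA came from homogenised lung, so fewer cells of a type and less RNA per cell cannot be told apart. Nothing in the labels gives more than 1 animal per array or names a batch.

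TGF-beta is secreted in a latent form that integrins and proteases activate, and it signals through paired receptors and Smad proteins to raise collagen and other matrix genes. PDGF chains act on fibroblasts and pericytes through PDGF receptors, and IGF-1 acts through the IGF-1 receptor under the control of binding proteins that hold it in tissue. IL-4 drives type 2 immunity, in which macrophages are a known source of IGF-1 and of other factors that act on fibroblasts.

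Values are MAS5 signals, an estimate of brightness on a linear scale, and 1 probe set's signal cannot be set against another's. The brightest tested probe set of a gene stood for it. A log2 difference is a difference between group means of log2(signal + 16) with its standard error, and a gene was called when the limma p, adjusted by the Benjamini-Hochberg method over all tested probe sets, was under 0.05. Array medians ran from 156.0 to 170.7. Il4 itself had signals of 301 to 379 in AdV-IL4 mice, 499 to 1173 in AdV-IL4d2 mice and 15.8 to 71.6 in AdV-NULL mice, so the groups did not overlap. Lung epithelial markers were present in every group, with all 8 of the 8 listed genes tested. The summed signal of 8 heart and skeletal muscle genes (8 of 8 tested) was 1627 to 6051 in AdV-IL4 mice, 5269 to 16150 in AdV-IL4d2 mice and 12880 to 67700 in AdV-NULL mice. AdV-IL4 and AdV-NULL mice did not overlap, and 6 of the 8 genes fell with AdV-IL4. The highest was AdV-NULL mouse 1 and the lowest AdV-IL4 mouse 2, so results were also computed without both, which left 5705 and 6051 in AdV-IL4 mice against 18490 and 12880 in AdV-NULL mice. The part of muscle RNA in the AdV-IL4 results was not tested.

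The start regions of 3 members are shown. Igf1 was the member whose response differed between the cytokine viruses. Tgfb1 and Tgfb2 were other secreted ligands of the group that did not pass the test in the main setting. The sequences are the 250 bases before the start in RefSeq's promoter table (GRCm38.p6), 5′ to 3′ on the gene's strand, at chr10:87860861-87861110 (plus strand) for Igf1, chr7:25686752-25687001 (plus strand) for Tgfb1 and chr1:186705990-186706239 (minus strand) for Tgfb2. Capitals mark the only matches to 5 motifs searched on both strands: TTCNNNNGAA and TTCNNNGAA, known as STAT sites with spacers of 4 and 3 bases, TGANTCA, the letters that the AP-1 factors of the Fos and Jun families are known to bind, CAGACA, the letters of the Smad box at which Smad proteins are known to bind, and the TATA box, which is known to place the start of transcription and was searched as TATAAA. No printed match overlapped another.
Igf1: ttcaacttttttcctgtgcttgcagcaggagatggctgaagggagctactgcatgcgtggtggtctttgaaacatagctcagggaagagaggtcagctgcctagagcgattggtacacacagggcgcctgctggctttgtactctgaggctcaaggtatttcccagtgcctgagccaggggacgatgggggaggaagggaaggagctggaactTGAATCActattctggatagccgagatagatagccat
Tgfb1: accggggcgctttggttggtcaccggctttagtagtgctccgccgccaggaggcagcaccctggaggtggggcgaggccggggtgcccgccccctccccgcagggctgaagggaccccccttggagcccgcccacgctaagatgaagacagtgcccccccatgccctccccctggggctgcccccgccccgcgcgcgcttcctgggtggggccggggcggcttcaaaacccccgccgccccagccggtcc
Tgfb2: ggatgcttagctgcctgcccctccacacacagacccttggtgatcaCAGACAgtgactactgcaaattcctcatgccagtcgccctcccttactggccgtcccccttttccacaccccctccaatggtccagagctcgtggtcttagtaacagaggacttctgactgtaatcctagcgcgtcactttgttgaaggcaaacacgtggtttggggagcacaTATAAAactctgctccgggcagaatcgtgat
The Igf1 window held TGAATCA at 37 bases before the start and none of the other 4 motifs, and 6.75% of 32851 windows of the same length held TGANTCA. In the Tgfb2 window CAGACA lay 204 and TATAAA 31 bases before the start, motifs that 17.1% and 12.4% of windows held. The Tgfb1 window held none of the 5, and was 75.2% G and C against 52.8% for Igf1 and 53.6% for Tgfb2. STAT motifs, which 5.85% (spacer of 4) and 7.02% (spacer of 3) of windows held, were not in any of the 3 windows, which says only that these letters are not there. The starts used by the table lie 2846 bases inside the gene as RefSeq annotates it for Igf1 and 3708 bases inside it for Tgfb2, and other starts were not looked at.

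Igf1 had the largest log2 difference of the 9 genes with AdV-IL4, and no such difference was called with AdV-IL4d2. IGF-1 is a survival and growth signal for fibroblasts and epithelial cells. Its standing probe set, 1437401_at, had signals of 2470.2, 2969.8 and 2588.7 in AdV-IL4 mice, 1357.7, 1151.2 and 1221.9 in AdV-IL4d2 mice and 984.5, 1364.9 and 1162.9 in AdV-NULL mice. Every AdV-IL4 mouse lay above all 6 others, and the AdV-IL4d2 and AdV-NULL mice overlapped. Igf1 was 2.28-fold higher in AdV-IL4 than in AdV-NULL mice (log2 difference 1.19 ± 0.12, 95% interval 0.92 to 1.46, adjusted p = 0.000164). Against AdV-IL4d2 mice it was 2.14-fold higher (log2 difference 1.09 ± 0.12, 95% interval 0.83 to 1.36, adjusted p = 0.00144). Igf1 thus differed between the cytokine viruses by more than the spread between mice. The Il4 signal of these groups differed as well, so cytokine form and transcript level cannot be told apart. AdV-IL4d2 mice differed from AdV-NULL mice by 0.10 ± 0.12 (95% interval −0.17 to 0.36, adjusted p = 0.786). Levels were 2676 ± 261 in AdV-IL4 mice, 1244 ± 105 in AdV-IL4d2 mice and 1171 ± 190 in AdV-NULL mice (SD, n = 3 each), and the last 2 do not differ beyond their spread.

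The other 3 Igf1 probe sets gave the same order of AdV-IL4 above the rest. On 1419519_at the AdV-IL4 mice had 945.8, 927.1 and 884.0, AdV-IL4d2 mice 287.7, 338.2 and 310.3, and AdV-NULL mice 206.3, 350.5 and 309.4. That probe set was 3.13-fold higher in AdV-IL4 than in AdV-NULL mice (log2 difference 1.65, adjusted p = 0.000142). 1452014_a_at was 2.54-fold higher (1.35, adjusted p = 0.000192) and 1434413_at 2.30-fold higher (1.20, adjusted p = 0.0036), so all 4 passed the test. Against AdV-IL4d2 mice 3 of the 4 passed, and 1434413_at, the next brightest, did not (log2 difference 0.87, adjusted p = 0.0554).

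**Figure D1:**
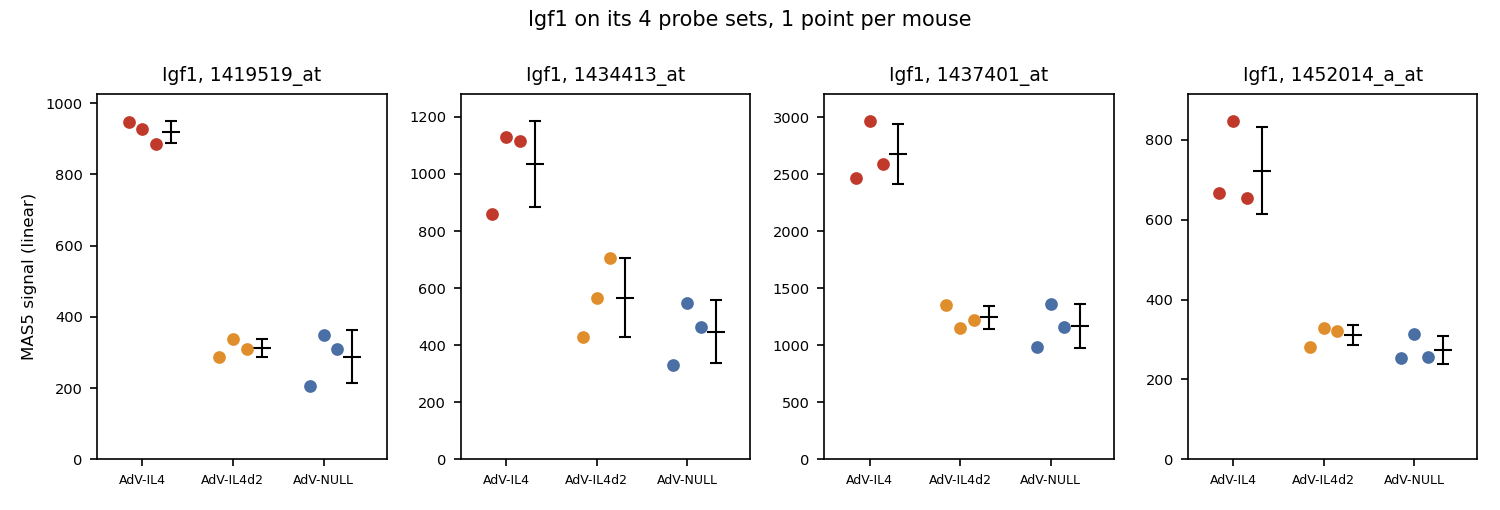
MAS5 signal (linear scale) of Igf1 on its 4 probe sets, 1 point per mouse, with the bar giving the mean and the whiskers the SD (n = 3 mice each). On every probe set the 3 AdV-IL4 mice lie above the AdV-IL4d2 and AdV-NULL mice, whose points overlap.

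Macrophage markers moved with Igf1 in part. The summed signal of 7 of 8 listed macrophage genes was 50720 to 55750 in AdV-IL4 mice, 44010 to 49700 in AdV-IL4d2 mice and 39950 to 53320 in AdV-NULL mice. AdV-IL4 and AdV-NULL mice overlapped, since AdV-NULL mouse 2 had 53320, and that mouse also had the highest Igf1 of its group. 4 of the 7 were called higher in AdV-IL4 than AdV-NULL mice, namely Adgre1, Cd68, Mrc1 and Mertk, and none lower. Of all tested genes 6.34% were called higher in that comparison. Mrc1, the mannose receptor, was also higher than in AdV-IL4d2 mice (log2 difference 0.66, adjusted p = 0.0343). It was the 1 marker of the 7 called between these groups, though all 7 had positive log2 differences. Itgam was the marker that did not pass the filter. Their part in the Igf1 difference was not tested.

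The 5 genes with the pattern most like Igf1 over the 9 arrays were Nrros, Tnfrsf9, Clec4a3, Ppt1 and Lgmn, with Pearson correlations of log2 signal of 0.991, 0.988, 0.981, 0.98 and 0.976 among 11539 genes. The 9 arrays fall in 3 groups, so these correlations are a description. Nrros, a protein that holds latent TGF-beta in myeloid cells, had signals of 874.0, 1040.4 and 885.9 in AdV-IL4 mice, 502.2, 452.4 and 482.7 in AdV-IL4d2 mice and 351.2, 567.7 and 438.5 in AdV-NULL mice. AdV-IL4 mice lay above both other groups in each of the 5.

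Ccn2, a matricellular protein induced by TGF-beta and by mechanical load, followed Igf1 as the second member higher with IL-4. It had signals of 9713.6, 9262.7 and 7512.5 in AdV-IL4 mice, 5933.9, 6261.5 and 6457.6 in AdV-IL4d2 mice and 3990.6, 5097.5 and 5259.2 in AdV-NULL mice. No 2 groups overlapped. AdV-IL4 mice were 1.85-fold above AdV-NULL mice (log2 difference 0.88 ± 0.12, 95% interval 0.62 to 1.15, adjusted p = 0.00101). Scaling to the hybridisation controls left this at 0.44 (adjusted p = 0.0745), against a shift of all probe sets of −0.43 under that scaling. The AdV-IL4d2 difference from AdV-NULL did not pass (0.39, 95% interval 0.13 to 0.65, adjusted p = 0.154), nor did AdV-IL4 against AdV-IL4d2 (0.50, 95% interval 0.24 to 0.76, adjusted p = 0.0617). The last of these passed without AdV-NULL mouse 1 (0.50, adjusted p = 0.0354) and without AdV-IL4 mouse 3 (0.61, adjusted p = 0.0383).

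Pdgfb, the PDGF chain made by endothelium and platelets, was the member that fell with AdV-IL4, a call that depended on single arrays. Its probe set 1450414_at had signals of 1089.6, 1128.4 and 1214.5 in AdV-IL4 mice, 1442.2, 1400.2 and 1224.6 in AdV-IL4d2 mice and 1370.3, 1499.6 and 1589.7 in AdV-NULL mice. AdV-IL4 mice lay below both other groups. The log2 difference from AdV-NULL was −0.37 ± 0.10 (adjusted p = 0.0323), a value 1.29-fold lower. The call was lost without AdV-NULL mouse 2 (−0.36, adjusted p = 0.0726), AdV-NULL mouse 3 (−0.32, adjusted p = 0.107), AdV-IL4 mouse 1 (−0.34, adjusted p = 0.0853) or AdV-IL4 mouse 2 (−0.36, adjusted p = 0.0747). The other, dimmer probe set 1450413_at gave −0.07 (adjusted p = 0.879). Platelet markers (5 of 6 tested) summed to 2136 to 2367 in AdV-IL4 mice, 2425 to 3208 in AdV-IL4d2 mice and 2489 to 2853 in AdV-NULL mice. Endothelial markers (7 of 7 tested) summed to 19870 to 24930 in AdV-IL4 mice, 22910 to 26390 in AdV-IL4d2 mice and 22930 to 24910 in AdV-NULL mice, and the part of either list in the Pdgfb value was not tested.

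Pdgfa, the chain that acts on PDGF receptor alpha, and Hbegf, a membrane-anchored EGF receptor ligand, did not pass the test. On their brightest probe sets the signals of both cytokine groups lay below those of AdV-NULL. Pdgfa had signals of 3422.6, 3690.7 and 3268.5 in AdV-IL4 mice, 3334.8, 2978.5 and 2757.7 in AdV-IL4d2 mice and 3840.5, 3787.1 and 4800.1 in AdV-NULL mice. Hbegf had 1370.2, 1431.2 and 1434.1 in AdV-IL4 mice, 1535.4, 1187.1 and 1423.0 in AdV-IL4d2 mice and 1733.4, 1694.6 and 1758.4 in AdV-NULL mice. On these probe sets every mouse given a cytokine virus lay below every AdV-NULL mouse. The dimmer Hbegf probe set 1418349_at kept that order. On the dimmer Pdgfa probe set 1418711_at AdV-IL4d2 mouse 1 (1930.1) lay above AdV-NULL mice 1 and 2 (1860.8 and 1773.0). Pdgfa differed from AdV-NULL by −0.25 in AdV-IL4 mice (adjusted p = 0.166) and by −0.45 in AdV-IL4d2 mice (adjusted p = 0.07). Hbegf differed by −0.29 in AdV-IL4 mice (adjusted p = 0.0862) and by −0.33 in AdV-IL4d2 mice (adjusted p = 0.144). Both comparisons share the AdV-NULL arrays, so they are not independent. Scaling to the hybridisation controls gave called falls with AdV-IL4 against AdV-NULL, against a shift of all probe sets of −0.43. The values were −0.7 for Pdgfa (adjusted p = 0.00997) and −0.73 for Hbegf (adjusted p = 0.01).

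In the main setting no TGF-beta ligand passed the test in any of the 3 comparisons. Scaling to the hybridisation controls shifted all probe sets by −0.43 with AdV-IL4 against AdV-NULL. There Tgfb2 (−0.7, adjusted p = 0.0135) and Tgfb3 (−0.7, adjusted p = 0.0152) were called lower. With AdV-IL4 against AdV-IL4d2, where the shift was −0.52, so were Tgfb2 (−0.55, adjusted p = 0.0364) and Tgfb3 (−0.84, adjusted p = 0.00443). Tgfb1, the isoform most often studied in fibrosis, had signals of 264.0, 352.3 and 262.7 in AdV-IL4 mice, 185.1, 287.7 and 261.2 in AdV-IL4d2 mice and 193.0, 307.7 and 211.6 in AdV-NULL mice. The groups overlapped, and the log2 difference of 0.30 between AdV-IL4 and AdV-NULL mice had a 95% interval of −0.17 to 0.77 (adjusted p = 0.421). Tgfb2 averaged 716 ± 75.8 in AdV-IL4 mice, 727 ± 60.3 in AdV-IL4d2 mice and 873 ± 179 in AdV-NULL mice (SD, n = 3 each), a difference of −0.26 for AdV-IL4 (95% interval −0.59 to 0.06, adjusted p = 0.288). Without AdV-NULL mouse 1 and AdV-IL4 mouse 2 the Tgfb2 difference was −0.53 (adjusted p = 0.0453). On the dimmer Tgfb2 probe sets 1450922_a_at and 1450923_at every AdV-IL4d2 mouse lay below every AdV-NULL mouse. The differences were −0.37 (adjusted p = 0.232) and −0.33 (adjusted p = 0.272), and neither passed. AdV-IL4 and AdV-NULL mice overlapped on both (−0.30, adjusted p = 0.188 and −0.26, adjusted p = 0.238). On 1438303_at both cytokine groups overlapped AdV-NULL. Tgfb3 signals lay lower in AdV-IL4 mice (363.2, 396.8 and 365.6) than in AdV-IL4d2 mice (416.5, 528.8 and 484.8) and AdV-NULL mice (489.0, 473.1 and 413.6), without overlap, but neither difference passed (adjusted p = 0.193 against AdV-NULL and 0.224 against AdV-IL4d2). Tgfbi, a matrix protein induced by TGF-beta, averaged 3717 ± 63.0 in AdV-IL4 mice, 3271 ± 195 in AdV-IL4d2 mice and 3186 ± 617 in AdV-NULL mice (SD, n = 3 each; difference from AdV-NULL 0.24, adjusted p = 0.219). It was called without AdV-NULL mouse 2, whose signal was the highest of that group (0.39, adjusted p = 0.018).

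**Figure D2:**
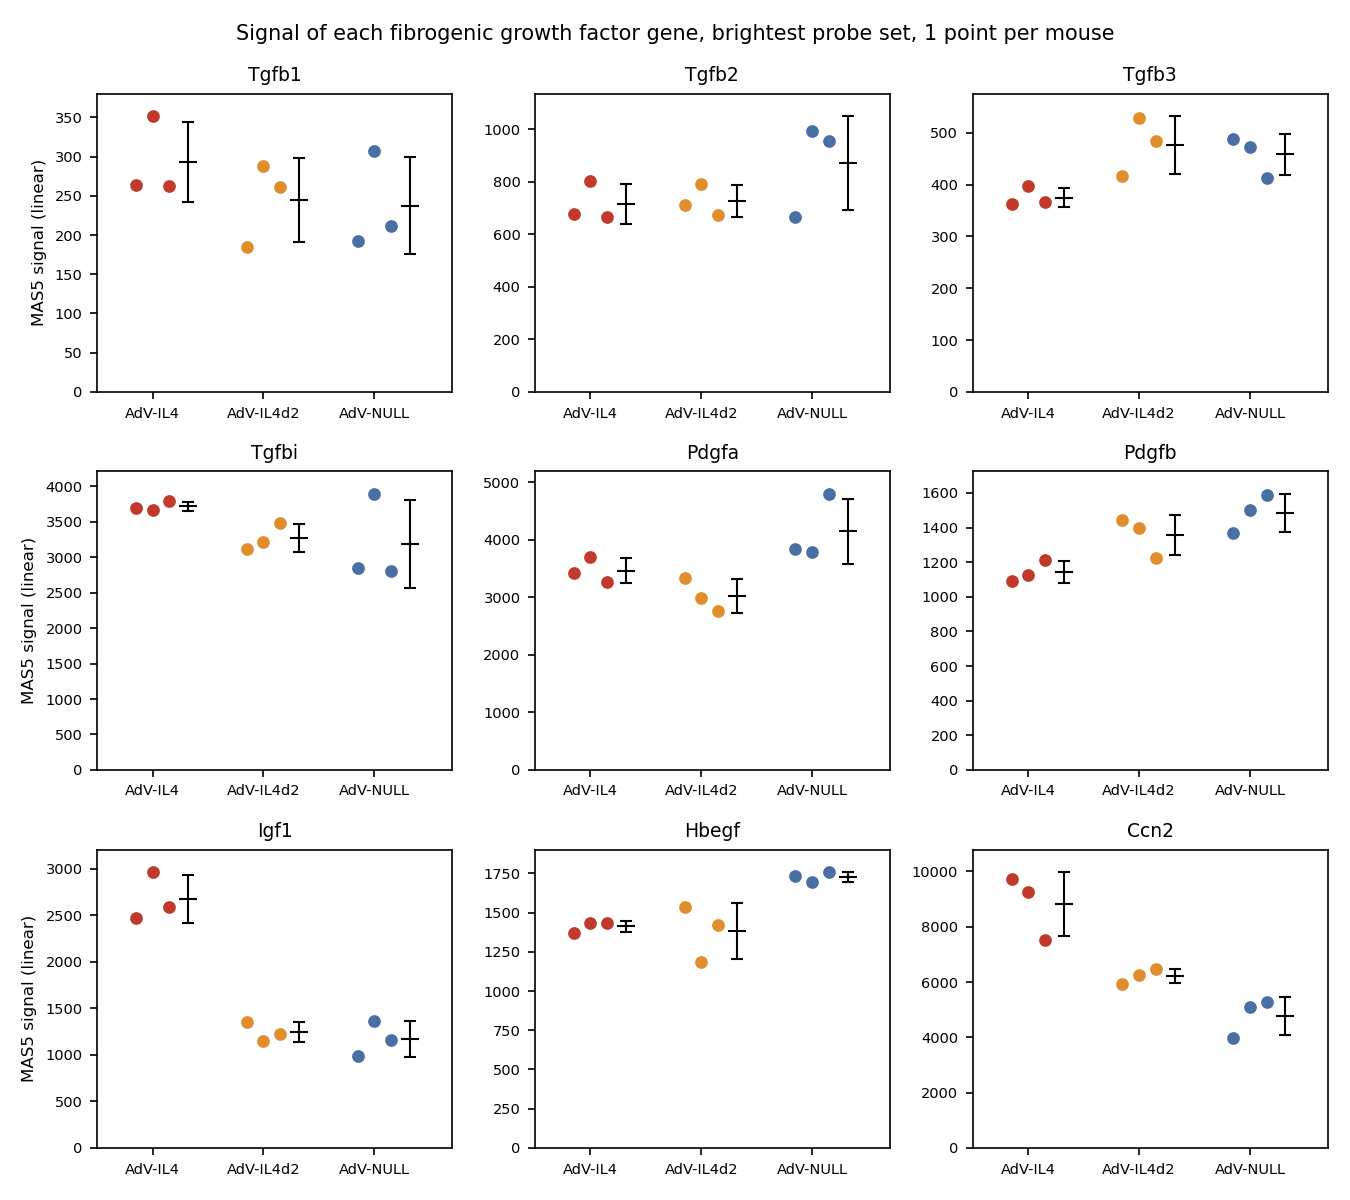
MAS5 signal (linear scale) of the 9 growth factor genes, brightest probe set, 1 point per mouse, with the mean and SD (n = 3 mice each) as bars. Igf1 and Ccn2 are highest in the 3 AdV-IL4 mice, Pdgfa and Hbegf are lower in every cytokine mouse than in every AdV-NULL mouse, and the Tgfb1 groups overlap.

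Across the 9 genes, 3 were called with AdV-IL4 against AdV-NULL (2 higher and 1 lower), where 13.0% of all tested genes were called, 6.34% higher and 6.63% lower. The median log2 difference of the 9 was −0.25, against −0.02 over all tested genes. Groups did not overlap in 6 of the 9 (2 above and 4 below), where 31.9% of all tested genes did not overlap. Of the 22 probe sets 6 were called, where 10.7% of all tested probe sets were. The 6 include every Igf1 probe set, and probe sets of the same gene are not independent. With AdV-IL4d2 against AdV-NULL, limma called 0 of 9, with 3 at an unadjusted p under 0.05 (Pdgfa, Hbegf and Ccn2), where 1.26% of genes were called, 0.859% higher and 0.401% lower. Groups did not overlap in 3 of 9, where 22.6% of genes did not. With AdV-IL4 against AdV-IL4d2, 1 of 9 was called, where 2.24% of genes were, 1.18% higher and 1.05% lower. Groups did not overlap in 5 of 9, where 24.0% of genes did not. Of the probe sets 3 of 22 were called, all 3 of them for Igf1, where 1.75% of all were.

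**Figure D3:**
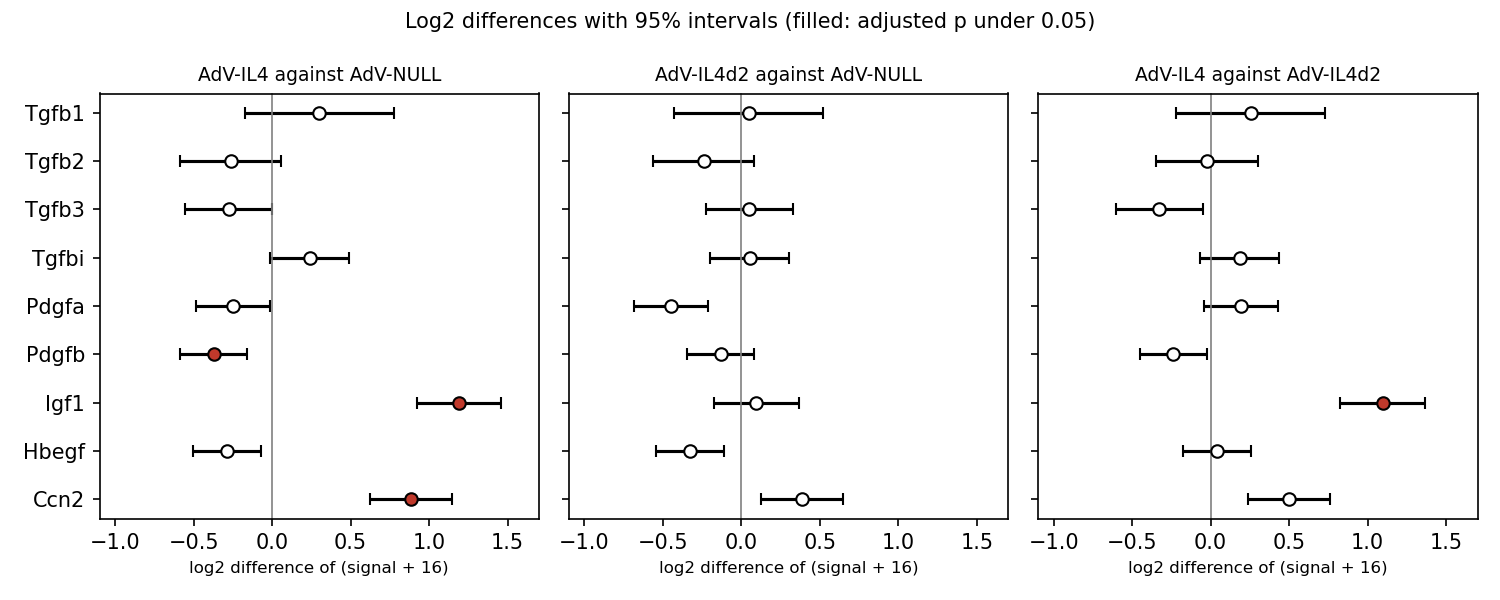
Log2 difference of (signal + 16) for the 9 genes with 95% intervals in 3 panels, AdV-IL4 against AdV-NULL, AdV-IL4d2 against AdV-NULL and AdV-IL4 against AdV-IL4d2, with filled points where the adjusted p was under 0.05. Filled points are Igf1, Ccn2 and Pdgfb in the first panel, none in the second and Igf1 in the third.

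Of 16 tested genes on the TGF-beta activation list (latent binding protein family, integrins and proteases), 6 rose and 0 fell with AdV-IL4 against AdV-NULL. The other 10 did not pass the test, and the median of the list was 0.35 against −0.02 over all genes. The counts of this and the later lists stand beside shares of all tested genes. These were 6.34% called higher and 6.63% lower with AdV-IL4, and 0.859% higher and 0.401% lower with AdV-IL4d2, each against AdV-NULL. Ltbp2, a latent TGF-beta binding protein family member of elastic fibres, averaged 2375 ± 99.3 in AdV-IL4 mice, 1499 ± 78.0 in AdV-IL4d2 mice and 739 ± 96.7 in AdV-NULL mice. It was 3.18-fold higher with AdV-IL4 (adjusted p = 3.44e-06) and 2.02-fold higher with AdV-IL4d2 (adjusted p = 0.000224), and it was the 1 gene of 16 called with AdV-IL4d2. The proteases Mmp14 (0.69, adjusted p = 0.00317) and Mmp2 (0.73, adjusted p = 0.00897) rose with AdV-IL4. Scaling to the hybridisation controls ended these calls (0.24, adjusted p = 0.346 for Mmp14 and 0.29, adjusted p = 0.274 for Mmp2). That scaling shifted the median of all probe sets by −0.43, so values under it are read relative to this shift. Mmp2 also lost its call without both AdV-NULL mouse 1 and AdV-IL4 mouse 2 (0.48, adjusted p = 0.0708). The integrin subunits Itgb8 (0.79, adjusted p = 0.0274) and Itgb6 (0.62, adjusted p = 0.017) rose too, with calls that depended on single arrays. Itgb8 lost its call without AdV-NULL mouse 1 (0.62, adjusted p = 0.102), AdV-NULL mouse 2 (0.81, adjusted p = 0.0541) or AdV-IL4 mouse 1 (0.65, adjusted p = 0.0933). Itgb6 lost it without AdV-NULL mouse 1 (0.55, adjusted p = 0.0694), AdV-NULL mouse 3 (0.56, adjusted p = 0.06) or AdV-IL4 mouse 2 (0.59, adjusted p = 0.0513). Scaling to the hybridisation controls ended both calls (0.37, adjusted p = 0.21 for Itgb8 and 0.19, adjusted p = 0.501 for Itgb6), as did leaving out both AdV-NULL mouse 1 and AdV-IL4 mouse 2 (0.68, adjusted p = 0.115 for Itgb8 and 0.52, adjusted p = 0.137 for Itgb6).

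Of 16 TGF-beta receptors and Smad genes, 1 rose and 1 fell with AdV-IL4 against AdV-NULL, a share near the 13.0% of all tested genes called. With AdV-IL4d2 0 were called (1 at an unadjusted p under 0.05). The median with AdV-IL4 of −0.12 lay near −0.02, that of all genes. Of 17 tested TGF-beta target genes, 8 rose and 3 fell with AdV-IL4, with a median of 0.37, while 3 rose with AdV-IL4d2. Lox, which cross-links collagen and elastin, averaged 1331 ± 203 in AdV-IL4 mice, 1408 ± 49.8 in AdV-IL4d2 mice and 695 ± 19.3 in AdV-NULL mice, and rose with both viruses (0.91, adjusted p = 0.000524 and 1.0, adjusted p = 0.0006). Its next brightest probe set did not pass with either (0.75, adjusted p = 0.0641 and 0.51, adjusted p = 0.359). Scaling to the hybridisation controls ended the call with AdV-IL4 (0.47, adjusted p = 0.0897), against a shift of all probe sets of −0.43. Tnc, a matrix glycoprotein of remodelling tissue, averaged 731 ± 17.5 in AdV-IL4 mice, 313 ± 21.1 in AdV-IL4d2 mice and 354 ± 59.1 in AdV-NULL mice, and AdV-IL4 mice were 2.27-fold above AdV-IL4d2 mice (adjusted p = 0.00144). Eln, which encodes elastin, averaged 4512 ± 96.3 in AdV-IL4 mice, 2123 ± 190 in AdV-IL4d2 mice and 915 ± 209 in AdV-NULL mice, and AdV-IL4 mice were 2.12-fold above AdV-IL4d2 mice (adjusted p = 0.00299). The contractile targets Tagln (−1.21, adjusted p = 0.00332) and Acta2 (−1.06, adjusted p = 0.0124) fell with AdV-IL4. Smooth muscle and pericyte markers (7 of 7 tested), a list that holds both, summed to 11460 to 16710 in AdV-IL4 mice, 12530 to 18450 in AdV-IL4d2 mice and 22850 to 25110 in AdV-NULL mice, and their part in this was not tested.

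The list of IGF ligands, receptors and binding proteins left out Igf1 itself, which rose with AdV-IL4 as described above. Of its 14 tested genes, 0 rose and 7 fell with AdV-IL4 against AdV-NULL. Their median was −0.42, against −0.02 over all genes. The binding protein Igfbp6 averaged 1551 ± 437 in AdV-IL4 mice, 2309 ± 254 in AdV-IL4d2 mice and 3127 ± 376 in AdV-NULL mice, and fell by 1.03 on the log2 scale with AdV-IL4 (adjusted p = 0.0028). Igfbp3 fell by 0.70 (adjusted p = 0.00832) and Igfbp5 by 0.63 (adjusted p = 0.00675), though a dimmer Igfbp5 probe set gave −0.07 (adjusted p = 0.913). Igf1r, the IGF-1 receptor, fell by 0.52 (adjusted p = 0.00745), and was named after its values were seen. Mesenchymal markers moved in both directions. Of 7 fibroblast markers Dcn (−1.16, adjusted p = 8.4e-05) and Lum (−0.83, adjusted p = 0.0206) fell with AdV-IL4 and Col3a1 rose (0.84, adjusted p = 0.00223). Of 7 smooth muscle and pericyte markers Acta2, Myh11, Tagln and Des fell. The summed fibroblast signal was 39490 to 45230 in AdV-IL4 mice, 39640 to 40410 in AdV-IL4d2 mice and 32690 to 38380 in AdV-NULL mice. This sum was thus higher in every AdV-IL4 mouse than in every AdV-NULL mouse. It holds the bright Col3a1, which averaged 19940 in AdV-IL4 mice and 11320 in AdV-NULL mice. Of the 7 fibroblast markers 3 had a positive log2 difference, and their median was −0.20, so the sum does not describe the markers as a set. The part of these markers in the IGF genes was not tested. With AdV-IL4d2 against AdV-NULL limma called 0 of the 14, with 5 at an unadjusted p under 0.05.

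The list of 6 PDGF ligands and receptors left out Pdgfa and Pdgfb, which are described above. Of the 6, 0 were called in each of the 3 comparisons. At an unadjusted p under 0.05 there were 1 with AdV-IL4 against AdV-NULL, 0 with AdV-IL4d2 against AdV-NULL and 1 with AdV-IL4 against AdV-IL4d2. The receptor Pdgfrb averaged 5601 ± 390 in AdV-IL4 mice, 5330 ± 742 in AdV-IL4d2 mice and 5003 ± 427 in AdV-NULL mice. Of 12 EGF family genes, 3 rose with AdV-IL4 against AdV-NULL, all of them in shedding of EGF receptor ligands: Rhbdf2 (0.81, adjusted p = 0.0147), Adam17 (0.59, adjusted p = 0.0201) and Adam10 (0.31, adjusted p = 0.0219). Adam17 is the enzyme that releases Hbegf and Areg, and Rhbdf2 escorts it to the cell surface. The calls were lost without AdV-NULL mouse 1 for Rhbdf2 (0.67, adjusted p = 0.0612), Adam17 (0.44, adjusted p = 0.0739) and Adam10 (0.29, adjusted p = 0.0771), and without AdV-NULL mouse 3 for Rhbdf2 (0.74, adjusted p = 0.0517), Adam17 (0.59, adjusted p = 0.0533) and Adam10 (0.31, adjusted p = 0.063). Adam17 (0.49, adjusted p = 0.0666) and Adam10 (0.29, adjusted p = 0.0619) also lost theirs without AdV-IL4 mouse 2, and Adam10 without AdV-IL4 mouse 1 (0.28, adjusted p = 0.0554). Scaling to the hybridisation controls, which shifted all probe sets by −0.43, ended all 3 calls (Rhbdf2 0.37, adjusted p = 0.168, Adam17 0.15, adjusted p = 0.583, and Adam10 −0.14, adjusted p = 0.553). Leaving out both AdV-NULL mouse 1 and AdV-IL4 mouse 2 ended them too (Rhbdf2 0.59, adjusted p = 0.128, Adam17 0.35, adjusted p = 0.162, and Adam10 0.28, adjusted p = 0.148). The next brightest Adam10 probe set gave −0.15 (adjusted p = 0.694).

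Ccn1, a matricellular protein of the same family as Ccn2, fell with both cytokine viruses. It averaged 4642 ± 956 in AdV-IL4 mice, 2416 ± 255 in AdV-IL4d2 mice and 7848 ± 2135 in AdV-NULL mice. With AdV-IL4d2 it fell by 1.66 on the log2 scale (3.16-fold lower, adjusted p = 0.000783). With AdV-IL4 it fell by 0.74 (adjusted p = 0.0312), a call lost without AdV-NULL mouse 2 (−0.68, adjusted p = 0.0835), AdV-NULL mouse 3 (−0.56, adjusted p = 0.107) or AdV-IL4 mouse 3 (−0.56, adjusted p = 0.102). Immediate early genes, which are known to change within minutes of tissue handling or stimulation, moved with it: 8 of 13 fell with AdV-IL4d2 (Egr1 by 2.95 and Fos by 2.09 on the log2 scale), and 6 of 13 fell and 1 rose with AdV-IL4. Their part in the Ccn1 and Ccn2 values was not tested. Of 14 other lung growth factors, 1 rose and 5 fell with AdV-IL4. Vegfa averaged 2596 ± 370 in AdV-IL4 mice, 2816 ± 133 in AdV-IL4d2 mice and 3892 ± 549 in AdV-NULL mice and fell by 0.58 with AdV-IL4 (adjusted p = 0.0112). Grn, which encodes progranulin, averaged 11130 ± 511 in AdV-IL4 mice, 8368 ± 473 in AdV-IL4d2 mice and 7838 ± 997 in AdV-NULL mice and rose by 0.51 with AdV-IL4 (adjusted p = 0.00733). Its call was lost under scaling to the hybridisation controls (0.06, adjusted p = 0.787), against a shift of all probe sets of −0.43. It was also lost without both AdV-NULL mouse 1 and AdV-IL4 mouse 2 (0.40, adjusted p = 0.0587).

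**Figure D4:**
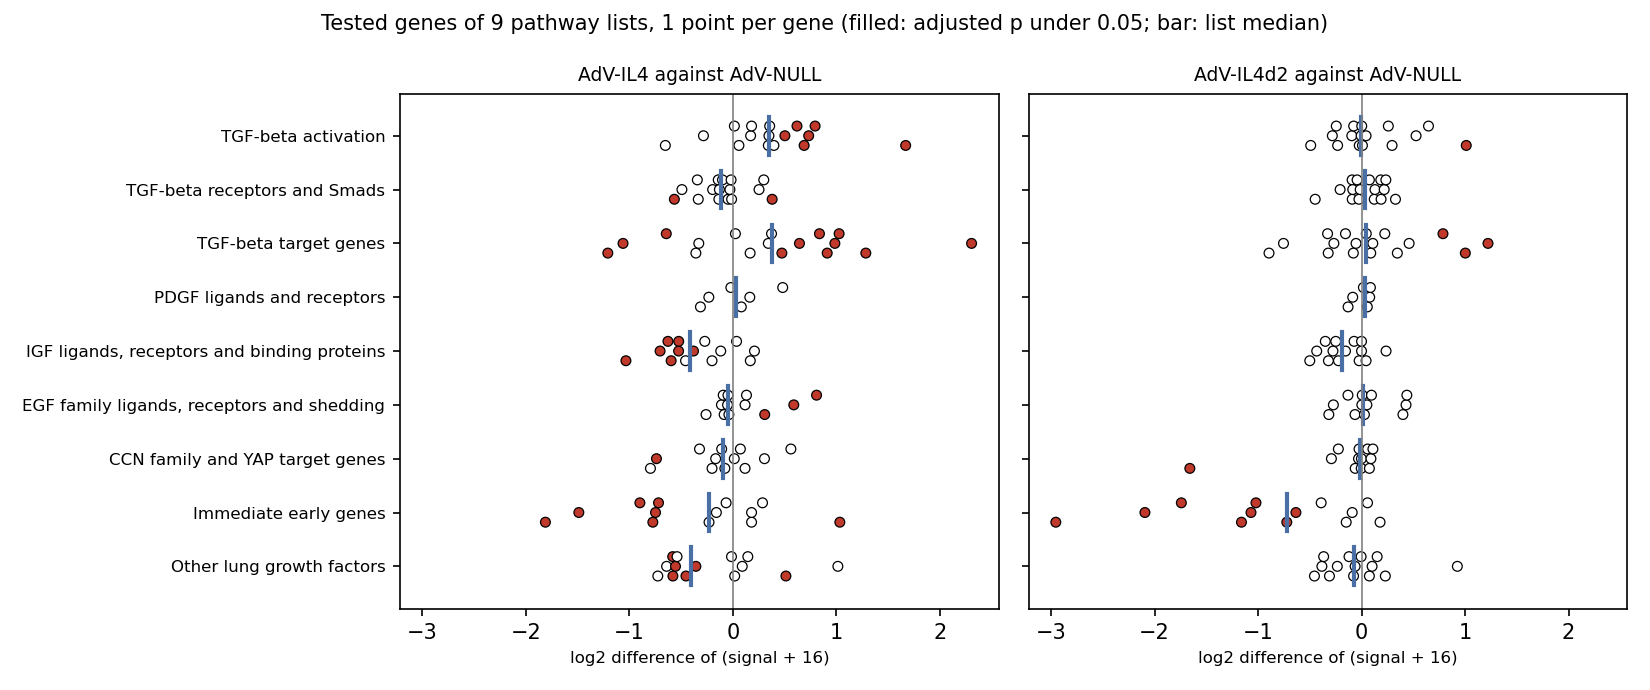
Log2 difference of (signal + 16) for each tested gene of 9 pathway lists, 1 point per gene, AdV-IL4 against AdV-NULL on the left and AdV-IL4d2 against AdV-NULL on the right, filled where the adjusted p was under 0.05 and with a bar at the list median. With AdV-IL4 the TGF-beta activation median is 0.35 and the median of the IGF list, which leaves out Igf1, is −0.42. With AdV-IL4d2 8 of 13 immediate early genes are filled on the low side.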

How the data were processed

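The authors deposited linear intensities, 1 for each of 45101 probe sets on each of 9 arrays. Per the labels' protocols, RNA was extracted with Trizol and labelled with a 3' IVT kit. MAS5, GCOS and Affymetrix Expression Console 2.0 are named, without roles, in the submitters' processing notes. From the values, each array was scaled to a 2% trimmed mean of 500.002, so a change shared by most genes would not show.

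Genes were named through the platform annotation, which gave 34958 probe sets 1 symbol and 932 several. Another 9211 were not listed. Signals were taken as log2(signal + 16), and a probe set was tested if it exceeded the array median on 3 or more of the 9 arrays, which left 23824 after 64 controls were removed. All 9 arrays entered 1 model in limma 3.58.1 (R 4.3.3; lmFit, eBayes with trend; 6 residual degrees of freedom) without covariates. Tests were two-sided, with Benjamini-Hochberg adjustment within each of 3 contrasts and a threshold of 0.05. The code was checked on simulated data. Arrays give no read depth, so the 3 arrays per group limit the precision.

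Named genes were all members, up to 4 called genes of each pathway list with the largest change (or the 2 brightest where fewer than 2 were called), and the 5 genes most like the member with the smallest F-test p. Members, lists and the design were chosen with earlier results of these data known. Igf1r, Fgf1 and Smad6 were named after their values were seen, and rule genes without a value in the text are counted only. Alternatives were another filter, other pseudocounts, quantile normalization, scaling to hybridisation controls, no trend, only the arrays compared, the next brightest probe set, a replicate block and each array left out. Nothing in the labels says whether mice were handled in separate batches.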

Additional observations from a re-analysis of the deposited data

Results flagged for a closer look

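Igf1 responded differently to the cytokine viruses in a test of the difference itself. Its log2 difference between AdV-IL4 and AdV-IL4d2 mice was 1.09 (limma adjusted p = 0.00144), and every AdV-IL4 mouse lay above every AdV-IL4d2 mouse. Leaving out each array in turn gave 1.02 to 1.16, each called. Mrc1 was the 1 of 7 tested macrophage markers called between these groups (0.66, adjusted p = 0.0343), though all 7 had positive log2 differences. The part of Mrc1 in the Igf1 difference was not tested.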

How the results depend on the processing

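The Igf1 call with AdV-IL4 against AdV-NULL held in all 9 fits that left out 1 array (1.07 to 1.31), as did Ccn2 (0.76 to 1.0). Over all named values and settings, 1515 kept direction and side of the threshold, 157 lost and 12 gained a call, and 34 changed sign. The 3 arrays per group limit the precision.

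Scaling to hybridisation controls moved the median of all probe sets by −0.43 with AdV-IL4 against AdV-NULL, 0.08 with AdV-IL4d2 against AdV-NULL and −0.52 with AdV-IL4 against AdV-IL4d2, and changes are read relative to these. It called 7451 probe sets (2546 in the main setting) and 6 members (3) with AdV-IL4 against AdV-NULL, and 11163 (416) and 4 members (1) with AdV-IL4 against AdV-IL4d2. Against AdV-NULL, Tgfb2 (−0.7), Tgfb3 (−0.7), Pdgfa (−0.7) and Hbegf (−0.73) gained a call as lower, and Ccn2 lost its call. Against AdV-IL4d2, Tgfb2 (−0.55), Tgfb3 (−0.84) and Pdgfb (−0.77) gained a call as lower. With AdV-IL4 against AdV-NULL it gave Tgfb1 −0.12, Tgfbi −0.21, Adam10 −0.14 and Tgfbr1 −0.07. With AdV-IL4 against AdV-IL4d2 it gave Tgfb1 −0.25, Tgfbi −0.35, Pdgfa −0.34, Hbegf −0.49 and Ccn2 −0.04.

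The next brightest probe set gave, with AdV-IL4 against AdV-NULL, Tgfb1 −0.01, Adam10 −0.15, Col1a1 −0.15 and Ski 0.33. It gave Tgfb1 −0.05 with AdV-IL4d2 against AdV-NULL, and Tgfb2 0.07, Pdgfa −0.09, Pdgfb 0.05 and Col1a1 −0.17 with AdV-IL4 against AdV-IL4d2. Without AdV-NULL mouse 1 and AdV-IL4 mouse 2, 1068 probe sets were called with AdV-IL4 against AdV-NULL, 200 with AdV-IL4d2 against AdV-NULL and 237 with AdV-IL4 against AdV-IL4d2, and AdV-IL4d2 against AdV-NULL gave Tgfb1 −0.08, Tgfbi −0.02 and Igf1 −0.02. No trend called 195 probe sets with AdV-IL4d2 against AdV-NULL (314) and 165 with AdV-IL4 against AdV-IL4d2, where no filter called 244 and only the 6 arrays compared called 2 members.

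Leaving out 1 array, the probe sets called ran from 1313 to 2210 with AdV-IL4 against AdV-NULL (1313 without AdV-NULL mouse 1, 1696 without AdV-NULL mouse 3), from 156 to 417 with AdV-IL4d2 against AdV-NULL, and from 110 to 446 with AdV-IL4 against AdV-IL4d2 (110 without AdV-IL4d2 mouse 3). Members called ran from 2 to 3 with AdV-IL4 against AdV-NULL and from 1 to 2 with AdV-IL4 against AdV-IL4d2, and stayed 0 with AdV-IL4d2 against AdV-NULL. Sign changes in these fits were confined to uncalled values: with AdV-IL4d2 against AdV-NULL, Tgfb1 ran from −0.08 to 0.24, Tgfb3 from −0.02 to 0.14, Tgfbi from −0.03 to 0.21 and Igf1 from −0.02 to 0.21, and with AdV-IL4 against AdV-IL4d2, Tgfb2 ran from −0.11 to 0.04 and Hbegf from −0.07 to 0.12. The cause of these moves was not tested.

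A replicate block called 2427 probe sets and 2 members with AdV-IL4 against AdV-NULL, 312 and 0 with AdV-IL4d2 against AdV-NULL, and 384 and 1 with AdV-IL4 against AdV-IL4d2. Same-numbered mice correlated between −0.069 and 0.116 in their deviations from the group means, and differently numbered mice between −0.133 and 0.132. Between AdV-IL4 and AdV-IL4d2 the same-numbered mice had 0.116, 0.102 and 0.071, and the differently numbered mice −0.089 to −0.013. With so few mice, these values cannot tell whether the numbers pair them. The block ended the calls of Pdgfb with AdV-IL4 against AdV-NULL (−0.37, adjusted p = 0.0521), and of Ccn1 (0.92, adjusted p = 0.0555) and Igf1r (−0.45, adjusted p = 0.0518) with AdV-IL4 against AdV-IL4d2.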

Other observations

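In the comparison of AdV-IL4 with AdV-IL4d2, the pathway lists with 1 gene called lower were those of IGF, of TGF-beta receptors and Smads, and of other growth factors, and the genes were Igf1r (−0.45, limma adjusted p = 0.0468), Smad6 (−0.73, adjusted p = 0.0377) and Fgf1 (−0.43). They were named after their values were seen. The Igf1r call was lost in each of the 9 fits that left out 1 array, with values of −0.51 to −0.37, while Smad6 kept its call in 5 of the 9 (−0.84 to −0.56) and Fgf1 in 3 of the 9 (−0.48 to −0.36).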
